A study of Mus musculus with 8 samples.

Results

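The PYHIN genes of the mouse lie side by side in a cluster on chromosome 1 and encode interferon-inducible proteins, most of which carry a pyrin domain, a HIN-200 domain that binds double-stranded DNA, or both. AIM2, the best-known member, binds DNA in the cytosol and assembles an inflammasome with the adaptor ASC and caspase-1, whereas p204, the product of *Ifi204*, has been linked to STING signalling in macrophages and several other members act in the nucleus on transcription and cell growth. Interferon induces the family through ISGF3, a transcription factor complex that binds a DNA element rich in GAAA repeats, the interferon-stimulated response element (ISRE). The 9 genes *Aim2*, *Ifi203*, *Ifi204*, *Ifi205*, *Ifi206*, *Ifi208*, *Ifi209*, *Ifi213* and *Mndal* were chosen by their symbols in a table of 22520 genes and assembled transcripts, and all 9 were found there.

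The values come from bulk RNA-seq of wild-type mouse splenic CD8+ T cells, which were stimulated without interruption through CD3 and CD28, with IL-2, to drive them toward exhaustion. From day 3, 4 cultures received DADA (diisopropylamine dichloroacetate, an inhibitor of pyruvate dehydrogenase kinase) at 40 µM and 4 received its solvent DMSO, and RNA was taken on day 6. All 8 cultures therefore share the stimulation, and by the labels the groups differ in the compound alone. The labels call the 4 libraries of a group biological replicates but do not tie them to separate mice. By the methods of the study, its mice were bought as young animals some weeks old. Those methods list several strains and both sexes and do not name the strain or sex used for these cultures.

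Expression is given as FPKM, a fragment count divided by transcript length and library size, so levels can be compared between genes. Changes were tested with limma on log2(FPKM + 1), and a gene was called when its Benjamini-Hochberg adjusted p-value over all features tested was under 0.05. On this scale the change of a gene below a few FPKM is understated. The libraries carried the T cell genes of their label, with *Cd8a* at 124 to 129 FPKM with DMSO and at 149 to 162 FPKM with DADA. Of 14 monocyte and macrophage markers, the cells in which several PYHIN genes are best known, only *Cd68* reached 1 FPKM, and *Csf1r*, *Adgre1*, *C1qa*, *C1qb* and *C1qc* were listed at 0 in all 8 libraries. The summed level of these 14 markers was 3.53 to 3.99 FPKM with DMSO and 5.29 to 5.96 FPKM with DADA, most of it *Cd68*. Markers of other cell types also moved with the groups. The B cell gene *Ebf1* was at 0.183 to 0.313 FPKM with DMSO and 0.866 to 1.42 FPKM with DADA, while *Cd79b* overlapped between the groups, *Pax5* was at 0 throughout, and the 7 B cell markers summed to 2.78 to 3.78 and 3.23 to 4.40 FPKM. The dendritic cell gene *Zbtb46* was lower with DADA (3.64 to 4.56 against 1.72 to 2.36 FPKM), with *Clec9a* and *Cd209a* at 0 throughout and sums over 8 markers of 3.79 to 4.83 and 1.98 to 2.54 FPKM. *Eomes*, on the NK cell list of 5 genes but also a gene of CD8+ T cells, was lower as well (13.3 to 14.1 against 9.96 to 11.0 FPKM) and made up nearly all of that list's sum. The T cell genes *Cd3d*, *Cd3e*, *Cd3g* and *Cd8b1* were each above 70 FPKM in all libraries, and no CD4 T cell, neutrophil or erythroid marker reached 1 FPKM. The part of these differences in the results below was not tested. In bulk RNA, more cells that express a gene and more RNA of that gene per cell cannot be told apart.

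Most of these genes have the core of the ISRE in a promoter, and its part in the changes below was not tested. Of the 9 genes, 8 have a promoter in the RefSeq table of build GRCm38.p6, from 250 bases before to 50 bases after the gene's start, and *Ifi204* has none there. The stretches below hold 60 bases each, 5′ to 3′ on the gene's strand and wholly before the start, with the ISRE core GAAANNGAAA in capitals. For *Ifi209*, which has no full core, the capitals mark the site at the same place that differs from GAAATCGAAA by G1T, counted from 1 at the 5′ end of these 10 letters. *Ifi214* and *Ifi211* are PYHIN genes outside the 9 and are shown for comparison with *Ifi209* and *Ifi205*.
Ifi206 (chr1:173491324-173491383, minus strand): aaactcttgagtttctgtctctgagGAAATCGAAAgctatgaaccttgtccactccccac
Ifi213 (chr1:173599311-173599370, minus strand): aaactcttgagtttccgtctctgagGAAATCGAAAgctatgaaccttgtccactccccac
Ifi208 (chr1:173673582-173673641, plus strand): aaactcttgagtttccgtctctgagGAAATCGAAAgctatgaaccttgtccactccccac
Ifi209 (chr1:173630755-173630814, plus strand): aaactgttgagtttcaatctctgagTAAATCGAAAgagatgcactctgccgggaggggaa
Ifi214 (chr1:173536002-173536061, minus strand): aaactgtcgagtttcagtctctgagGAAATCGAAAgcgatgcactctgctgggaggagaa
Mndal (chr1:173880189-173880248, minus strand): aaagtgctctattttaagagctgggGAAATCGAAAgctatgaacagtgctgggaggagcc
Ifi203 (chr1:173942493-173942552, minus strand): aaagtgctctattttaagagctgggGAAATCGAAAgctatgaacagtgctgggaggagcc
Ifi205 (chr1:174031855-174031914, minus strand): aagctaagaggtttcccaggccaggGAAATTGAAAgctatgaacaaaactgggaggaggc
Ifi211 (chr1:173913049-173913108, minus strand): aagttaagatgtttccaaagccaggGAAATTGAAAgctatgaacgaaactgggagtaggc
Aim2 (chr1:173420544-173420603, plus strand, the last 60 bases before the start): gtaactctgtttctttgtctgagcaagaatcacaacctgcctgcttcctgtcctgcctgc

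The core, searched on both strands, lay in a promoter of 6 of the 8 genes, against 3.99% of the 27025 genes in the table, and *Ifi209* and *Aim2* were the genes without it. Its last base was 26 to 64 bases before the start in *Ifi203*, *Mndal*, *Ifi206*, *Ifi208* and *Ifi213* and 125 bases before it in *Ifi205*, which holds a further core on the other strand just after its start. A second start of *Mndal* had the core on the other strand, and a second start of *Ifi203* had none. The letters GAAATCGAAA, searched after the promoters had been seen, occurred in a promoter of 16 genes of the whole table, 7 of them PYHIN genes and 5 of these among the 9. The stretches of *Ifi213* and *Ifi208* agreed at 60 of 60 bases and those of *Mndal* and *Ifi203* likewise at 60 of 60, while *Ifi214* and *Ifi209* agreed at 54. The genes of the cluster are copies of each other, so their sites are not independent, and a match to these letters is a description and not a measured binding site. For comparison, a core lay in a promoter of 11 of 22 interferon-stimulated genes outside the family, 11 of 20 interferon genes and 3 of 16 genes of the pathway from the interferon receptors to ISGF3, and in none of 16 inflammasome or 15 DNA-sensing genes with an entry. The motif TTCNNNGAA, the GAS element of the interferon-γ response, was found in none of the 8 and in 9.55% of all genes.

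All 9 PYHIN genes were higher in DADA-treated than in DMSO-treated CD8+ T cells, and the size of the difference ran from a slight change of *Aim2* to a rise of *Ifi204* from the edge of detection. Every DADA library lay above every DMSO library for each of the 9 (two-sided exact permutation test for each gene, p = 0.0286, the smallest that 4 against 4 libraries allow), as it did for 28.4% of the 10666 features that reached 1 FPKM in at least 4 libraries. All 9 were called higher and none lower, where 30.9% of these features were called higher and 35.3% lower (66.2% in all). Of the 9, 7 had a change of at least 1 on the log2 scale, which 3.56% of the features had with a call. Because 5 of the 9 (*Ifi204*, *Ifi205*, *Ifi206*, *Ifi208* and *Ifi213*) passed the filter through the DADA libraries alone, the fit was also made without a filter, over 16167 features. Of these, 24.8% were called higher and 23.9% lower (48.7% in all), and 23.2% had every DADA library above every DMSO library. As a part of those called higher, 2.35% of the features had a change of at least 1. That count was 380 in both fits, so its share fell only because more features were tested. All 9 were called without the filter too, and the median log2 change of the 9 was 1.81, beside 0.00451 over all features of that fit.

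**Figure D1:**
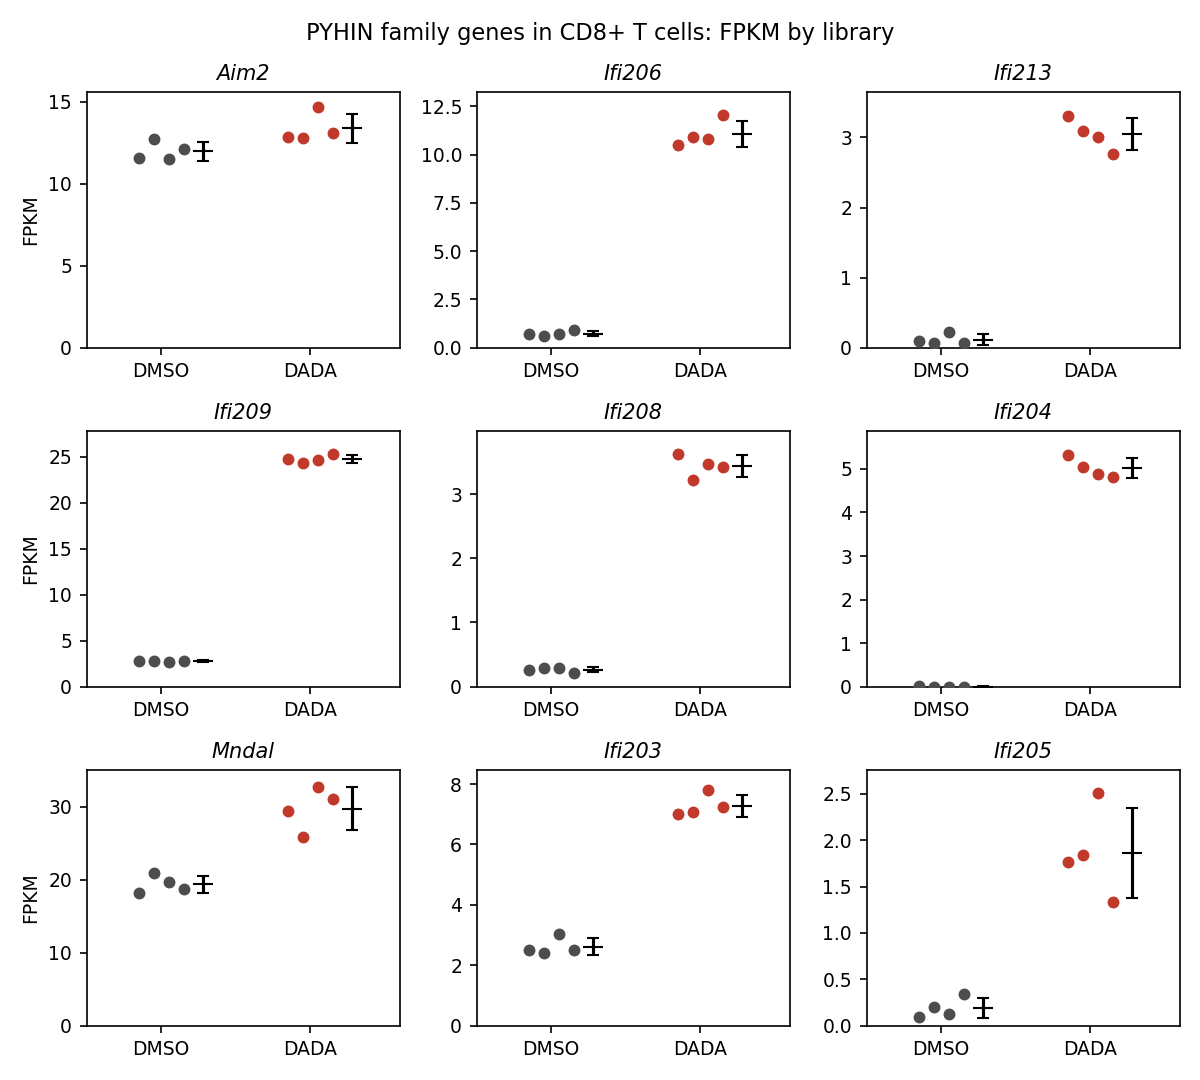
FPKM of the 9 PYHIN genes in each of the 4 DMSO and 4 DADA libraries (points, in the order of the replicate numbers), each panel with its own axis from 0, and the mean with its SD to the right of the points. The groups do not overlap in any panel, with *Ifi204* at or near 0 in all DMSO libraries and *Aim2* and *Mndal* well above 0 in both groups.

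The HIN-200 genes with the plainest rises were *Ifi209* and *Ifi206*. *Ifi209* (ENSMUSG00000043263), also called Pyhin1, had DMSO values of 2.83, 2.79, 2.65 and 2.84 FPKM and DADA values of 24.8, 24.3, 24.6 and 25.4 FPKM. The 4 libraries of each group were tightly grouped, and the means were 2.78 ± 0.0879 FPKM (SD, n = 4) and 24.8 ± 0.447 FPKM (SD, n = 4), an 8.92-fold difference. Its log2 change was 2.77 (standard error 0.0351, limma, adjusted p = 4.32e-12). *Ifi206* (ENSMUSG00000037849) was below 1 FPKM with DMSO, at 0.722, 0.611, 0.694 and 0.896 FPKM, and at 10.5, 10.9, 10.8 and 12.0 FPKM with DADA. The lowest DADA library was thus more than 10 FPKM. On the log2(FPKM + 1) scale the change of 2.80 (standard error 0.0637, limma, adjusted p = 2.10e-10) was within the error of that of *Ifi209*. This likeness depended on the scale. With a pseudocount of 0.1 FPKM in place of 1 FPKM, the change was 3.76 for *Ifi206* and 3.11 for *Ifi209*. Their 95% intervals, 3.53 to 3.99 and 3.02 to 3.20, did not overlap there.

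*Ifi204* (ENSMUSG00000073489), whose protein p204 has been linked to DNA-triggered STING signalling, was listed at 0 in 3 DMSO libraries and at 0.0150 FPKM in DMSO 1. With DADA it was at 5.32, 5.05, 4.89 and 4.82 FPKM, so all 4 libraries held it at a similar level. The log2 change came to 2.58 (standard error 0.0539; adjusted p = 1.11e-10 by limma) at the pseudocount of 1 FPKM used throughout and to 5.63 at 0.1 FPKM. A ratio of the means is left out because the DMSO values were at or near 0. *Ifi213* and *Ifi208*, once named *Pydc4* and *Pydc3* for their pyrin domain, were also below 1 FPKM in every DMSO library. *Ifi213* (ENSMUSG00000073491) was at 0.0940, 0.0625, 0.228 and 0.0703 FPKM with DMSO and at 3.31, 3.10, 3.00 and 2.76 FPKM with DADA. *Ifi208* (ENSMUSG00000066677) was at 0.254, 0.298, 0.287 and 0.212 FPKM with DMSO and at 3.62, 3.22, 3.47 and 3.43 FPKM with DADA. These genes, which share the same 60 bases around the ISRE core, had log2 changes of 1.86 (*Ifi213*, standard error 0.0721, limma, adjusted p = 1.10e-08) and 1.81 (*Ifi208*, standard error 0.0572, limma, adjusted p = 2.23e-09). With a pseudocount of 0.1 FPKM the changes were 3.94 and 3.29, which shows how far the scale sets the size for genes at this level.

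*Ifi203* and *Ifi205* changed less on this scale. *Ifi203* (ENSMUSG00000039997), which encodes a nuclear HIN-200 protein, was at 2.51, 2.42, 3.02 and 2.49 FPKM with DMSO and at 7.02, 7.06, 7.79 and 7.24 FPKM with DADA. The highest DMSO library, DMSO 3, stayed far below the lowest DADA library, and the means differed by 2.79-fold. Its log2 change was 1.20 (standard error 0.0615, limma, adjusted p = 7.98e-08). *Ifi205* (ENSMUSG00000054203), whose protein p205 has been linked to the expression of the adaptor ASC, was the scarcest of the 9 genes with DADA and the most variable, at 1.77, 1.84, 2.50 and 1.34 FPKM after 0.0884, 0.197, 0.130 and 0.337 FPKM with DMSO. The coefficient of variation was 25.9% with DADA, against 1.81% to 9.85% for the other 8 genes. The log2 change came to 1.26 (standard error 0.120; adjusted p = 7.79e-06 by limma), or to 2.81 at a pseudocount of 0.1 FPKM.

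*Mndal* and *Aim2* were the most abundant PYHIN genes with DMSO and changed the least. *Mndal* (ENSMUSG00000090272), named for its likeness to the human myeloid nuclear differentiation antigen MNDA, was at 18.2, 20.9, 19.6 and 18.7 FPKM with DMSO and at 29.4, 25.8, 32.6 and 31.0 FPKM with DADA. The groups lay about 5 FPKM apart at their nearest, the means differed by 1.53-fold, and the log2 change was 0.59 (standard error 0.0680, limma, adjusted p = 3.09e-05). *Mndal* and *Ifi203* agreed at every base of the stretch printed above, and their 95% intervals for the log2 change, 0.44 to 0.74 and 1.06 to 1.34, did not overlap.

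*Aim2* (ENSMUSG00000037860), the cytosolic DNA receptor of the inflammasome, was at 11.6, 12.7, 11.5 and 12.1 FPKM with DMSO and at 12.8, 12.8, 14.7 and 13.1 FPKM with DADA. DMSO 2 came within 0.1 FPKM of the lowest DADA library, DADA 2, and the means of 12.0 ± 0.573 FPKM (SD, n = 4) and 13.4 ± 0.888 FPKM (SD, n = 4) differed by 1.12-fold. The log2 change was 0.14, with a 95% interval of 0.03 to 0.26 (limma, adjusted p = 0.0277). This call depended on single libraries: it was lost without DMSO 1 (log2 change 0.13, adjusted p = 0.0684), without DMSO 3 (0.13, adjusted p = 0.0708) and without DADA 3 (0.10, adjusted p = 0.0637), in each case with limma.

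**Figure D2:**
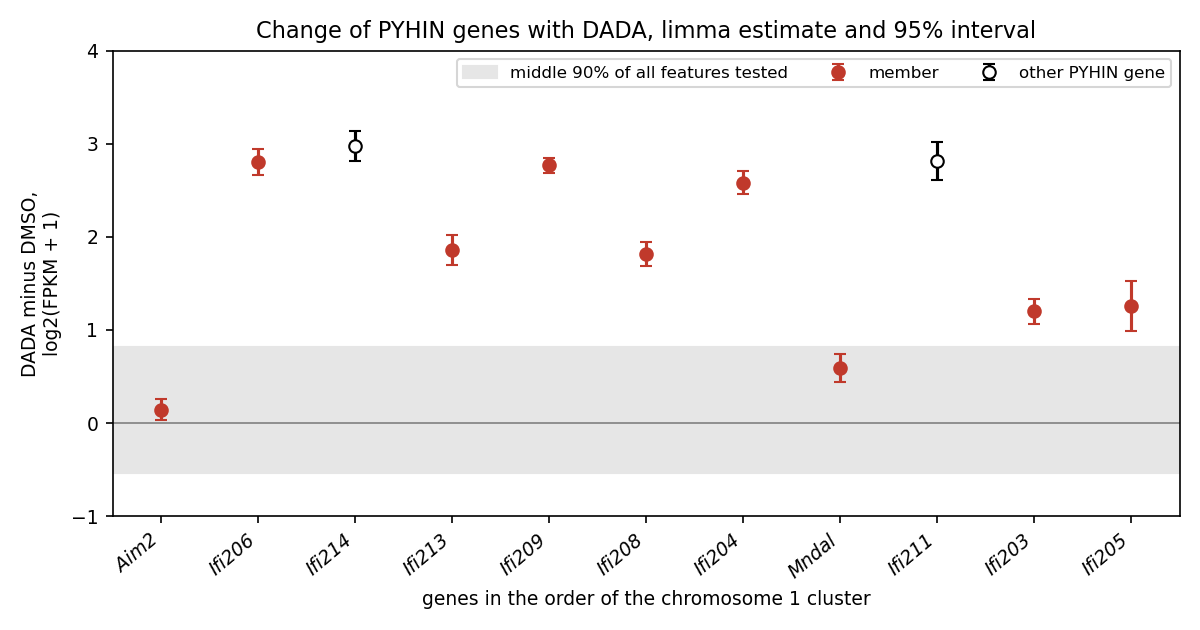
Difference between DADA and DMSO on the log2(FPKM + 1) scale for the PYHIN genes tested, in their order along the cluster, with the limma estimate and its 95% interval (filled, the 9 genes; open, *Ifi214* and *Ifi211*) and the middle 90% of all features tested (grey, -0.53 to 0.82). *Aim2* at one end of the cluster and *Mndal* inside it lie within the grey band, and the other genes lie above it.

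The same pattern was looked for in the PYHIN genes outside the 9. *Ifi214* (ENSMUSG00000070501) was at 0.855, 0.671, 0.637 and 0.460 FPKM with DMSO and at 12.1, 11.4, 12.0 and 12.5 FPKM with DADA, a log2 change of 2.98 (limma, adjusted p = 3.15e-10). *Ifi211* (ENSMUSG00000026536) was at 0.404, 0.663, 0.470 and 0.917 FPKM with DMSO and at 10.5, 9.62, 10.4 and 10.6 FPKM with DADA, a log2 change of 2.82 (limma, adjusted p = 2.92e-09). Both were thus like *Ifi206* in level and change, and like it they passed the filter through the DADA libraries alone. Without the filter, limma gave adjusted p = 2.09e-08 for *Ifi214* and 1.27e-07 for *Ifi211*. With a pseudocount of 0.1 FPKM their changes were 4.02 and 3.92, beside 3.76 for *Ifi206*. *Ifi207*, which also has the core, had 0 in each DMSO library and 0.115, 0.166, 0.216 and 0.133 FPKM after DADA, under the filter, and *Ifi202b* was listed at 0 in all 8 libraries. The estimated depth, which is fixed only up to a whole multiple, was above that of every DMSO library in 3 DADA libraries, and its part in values as low as those of *Ifi207* was not tested. At the border of the cluster on the side of *Aim2*, *Cadm3* and *Ackr1* did not exceed 0.0496 FPKM.

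Neighbouring copies are similar enough for fragments to be shared, and how the authors' tools divided them is not given in the sources used here. In the GENCODE M21 transcripts, 36.1% of all windows of 150 bases in the longest coding transcript of *Ifi205* occurred unchanged in *Ifi211*, and 46.4% of those of *Ifi211* occurred in another gene. The values of *Ifi205* and *Ifi211* are therefore uncertain. The share was 10.8% for *Ifi204* (with *Ifi211*), 10.0% for *Ifi209* and 11.9% for *Ifi214* (with each other), and 5.97% for *Ifi206*. It was between 0% and 2.22% for *Ifi203*, *Ifi208*, *Ifi213*, *Mndal* and *Aim2*, and *Aim2* shared no window. With windows of 75 bases, the shares were higher for every one of the 9 genes but *Aim2*, at 5.19% for *Ifi203*, 13.9% for *Mndal*, 14.4% for *Ifi213*, 14.9% for *Ifi208*, 17.4% for *Ifi206*, 20.7% for *Ifi204*, 24.3% for *Ifi209* and 45.2% for *Ifi205*, so that some division of fragments is possible for these 8 genes.

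The unequal changes altered the make-up of the 9 genes, a set that leaves out *Ifi214* and *Ifi211* (means of 12.0 and 10.3 FPKM with DADA). The summed FPKM of the 9 genes was 36.3 to 40.0 with DMSO and 94.0 to 104 with DADA. With DMSO, *Mndal* and *Aim2* together held 81.6% to 84.0% of this sum, and with DADA they held 41.0% to 45.3%. *Ifi209* went from 7.31% ± 0.419 (SD, n = 4) to 24.9% ± 0.937 (SD, n = 4), and *Ifi206* from a mean of 1.93% to one of 11.1%. *Ifi203* kept nearly the same part, at 6.05% to 7.92% with DMSO and 7.12% to 7.51% with DADA. These shares describe the same values and carry no test of their own.

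**Figure D3:**
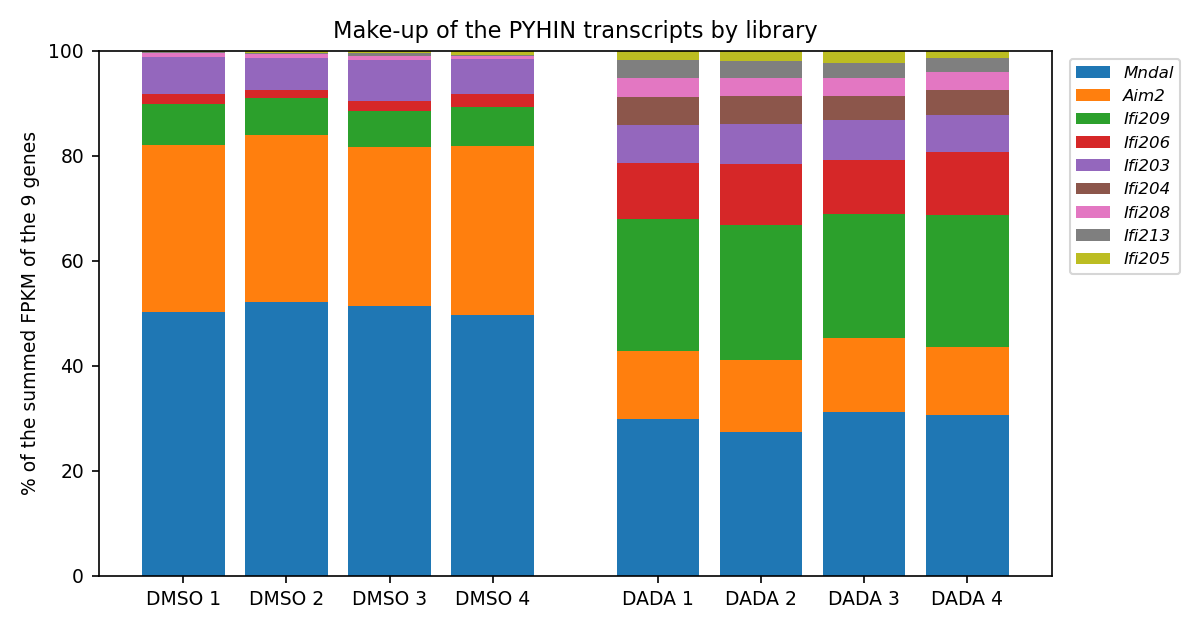
Share of each of the 9 genes in their summed FPKM, in percent, stacked for each DMSO and DADA library. *Mndal* and *Aim2* fill 81.6% to 84.0% of each DMSO bar and 41.0% to 45.3% of each DADA bar, where *Ifi209* and *Ifi206* take wider bands.

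By level, the order with DMSO was *Mndal*, *Aim2*, *Ifi209*, *Ifi203*, *Ifi206*, *Ifi208*, *Ifi205*, *Ifi213* and *Ifi204*. Neighbours in this order whose 4 values overlapped, and which did not differ beyond their spread, were *Ifi209* and *Ifi203*, *Ifi208* and *Ifi205*, and *Ifi205* and *Ifi213*. With DADA the order was *Mndal*, *Ifi209*, *Aim2*, *Ifi206*, *Ifi203*, *Ifi204*, *Ifi208*, *Ifi213* and *Ifi205*, and only *Ifi208* and *Ifi213* overlapped as neighbours. *Ifi209* thus stood above *Aim2* in every DADA library and below it in every DMSO library.

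Genes of a list drawn up around the inflammasome, not all of them partners of AIM2, were called in both directions. Of 18 genes in this list, 10 passed the filter, of which 3 were called higher and 5 lower, with a median log2 change of -0.00499, where 30.9% of all features were called higher and 35.3% lower. Without the filter, 4 of the 18 were called higher and 4 lower, where 24.8% of all features were called higher and 23.9% lower. Higher were *Pstpip1*, a pyrin-binding adaptor (39.2 to 106 FPKM in the means, log2 change 1.42), the cytokine gene *Il18* (0.510 to 1.26 FPKM, 0.59) and the caspase gene *Casp8* (39.3 to 55.1 FPKM, 0.48). *Il18* passed the filter through the DADA libraries alone, and its change was 1.19 with a pseudocount of 0.1 FPKM and 0.28 after quantile normalization. *Casp1*, the protease of the inflammasome, fell from 6.83 ± 0.696 to 3.23 ± 0.255 FPKM (SD, n = 4), a log2 change of -0.89 (limma, adjusted p = 2.35e-06). *Nek7* fell by 0.40 and *Gsdmd*, which encodes the pore-forming gasdermin D, by 0.24 on the log2 scale. The adaptor gene *Pycard*, named after its values were seen, had a log2 change of -0.16 (limma, adjusted p = 0.0325), and its call was lost in 6 of 16 alternative fits, with a change of -0.10 without DADA 3. *Il1b*, named in the same way, did not exceed 0.0503 FPKM in any library.

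Among 20 genes of cytosolic DNA sensing and DNA clearance, all of which passed the filter, 7 were called higher and 10 lower. Their median log2 change was -0.13. Beside these counts, 30.9% of all features tested were called higher and 35.3% lower. The largest rises were those of *Zbp1*, a sensor of Z-form nucleic acid (15.8 to 51.5 FPKM in the means, log2 change 1.65), and *Samhd1*, a dNTP hydrolase (61.9 to 148 FPKM, 1.24). *Trex1*, a DNA exonuclease gene, had a log2 change of 0.49 (limma, adjusted p = 0.0343), but its groups overlapped, 5 of 16 alternative fits lost the call, and without DMSO 4 the change was 0.30. *Xrcc5* and *Xrcc6*, the subunits of Ku, fell by 0.79 and 0.75 and *Hmgb1* by 0.49 on the log2 scale. The central pair of this pathway, named after their values were seen, changed little: *Cgas* had a log2 change of -0.21 (limma, adjusted p = 0.00592) and *Sting1* one of 0.12 (limma, adjusted p = 0.00616).

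In the pathway from the interferon receptors to ISGF3, 13 of 19 genes were called higher and 3 lower, with a median log2 change of 0.22. Over all features tested, 30.9% were called higher and 35.3% lower. The largest rises were those of *Usp18*, a brake on receptor signalling (0.637 to 30.5 FPKM in the means, log2 change 4.27), *Irf7* (1.15 to 29.5 FPKM, 3.83) and the ISGF3 subunit gene *Stat2* (11.9 to 32.4 FPKM, 1.38). *Ifnar1*, a chain of the type I receptor, fell from 41.4 to 31.9 FPKM in the means, a log2 change of -0.37 (limma, adjusted p = 1.49e-06), and *Irf1* and *Jak1* fell by 0.18 and 0.16 on the log2 scale. Of 30 interferon-stimulated genes outside the family, 29 passed the filter and all 29 were called higher, led by *Isg15* (log2 change 5.16), *Oasl1* (3.97) and *Ifit1* (3.68), with a median of 2.09, where 30.9% of all features were called higher. *Oasl1* and *Ifit1*, like *Usp18* above, passed through the DADA libraries alone. Without the filter, all 30 genes were called higher, where 24.8% of all features were, and their median was 2.03. The list was drawn up with earlier results of these data known, so these counts are a description only.

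Of 21 interferon genes, *Ifng* alone passed the filter, at 404 ± 20.1 FPKM in the DMSO group and 649 ± 8.54 FPKM in the DADA group (SD, n = 4), a log2 change of 0.68 (limma, adjusted p = 6.39e-08). Type I interferon genes were near the limit of detection. *Ifnb1* had 0 in each DMSO library and 0.536, 0.412, 0.326 and 0.133 FPKM after DADA. *Ifna4* was likewise at 0 with DMSO and at 0.421, 1.10, 0.803 and 0.842 FPKM with DADA, and *Ifna2* at 0 and at 0.676, 0.867, 0.310 and 0.557 FPKM. Without the filter, these 3 genes were called (limma, adjusted p = 0.00257, 2.18e-04 and 4.53e-04), as were *Ifna1* and *Ifnz*, which did not exceed 0.231 FPKM. With *Ifng*, 6 of the 10 interferon genes tested in that fit were called higher, where 24.8% of all features were. *Ifna16*, *Ifnab*, *Ifnl2* and *Ifnl3* reached at most 0.344 FPKM and were not called, and the other 11 genes of the list were listed at 0 throughout.

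**Figure D4:**
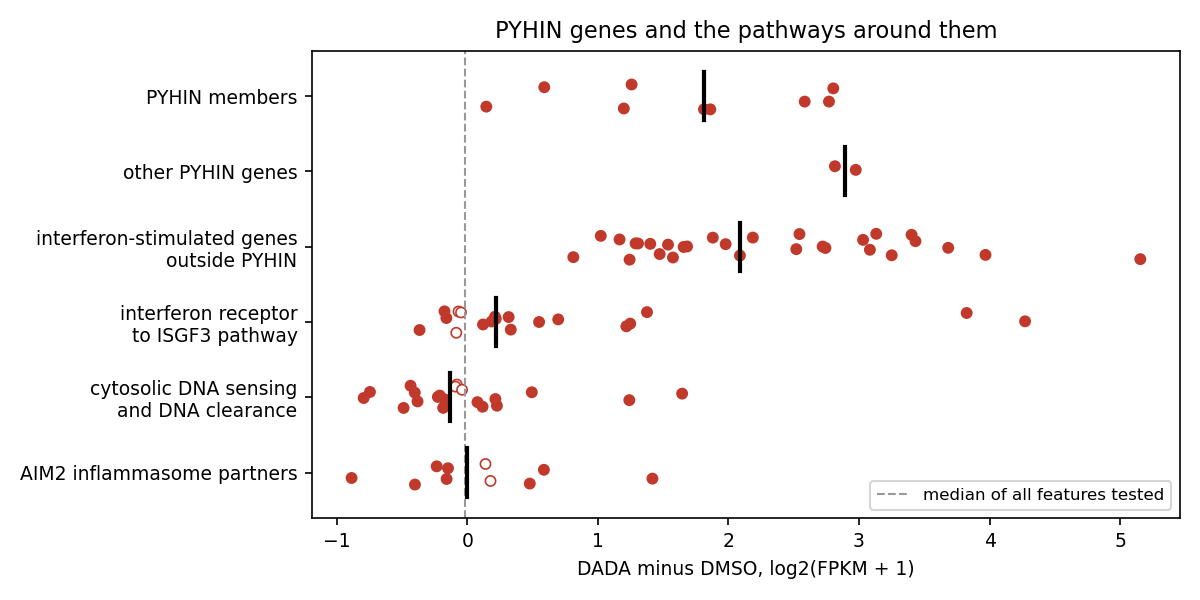
Difference between DADA and DMSO on the log2(FPKM + 1) scale for each tested gene of 6 lists (filled, limma adjusted p under 0.05; open, not called), with the median of each list as a black bar and the median of all features tested as a dashed line. The PYHIN genes and the other interferon-stimulated genes lie to the right of 0, with medians of 1.81 and 2.09, while the DNA-sensing and inflammasome lists spread to both sides.

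The features outside the family whose profile over the 8 libraries came nearest to the median profile of the 9 genes were *Emilin2*, *Gipr*, *Pgm1*, *Il10ra* and *Mxi1*. Likeness was measured as the root mean square difference of log2(FPKM + 1), each taken relative to its DMSO mean, and was between 0.0454 for *Emilin2* and 0.0633 for *Mxi1*. *Pgm1*, a phosphoglucomutase gene, rose from a mean of 27.8 to one of 102 FPKM, and *Il10ra*, a chain of the IL-10 receptor, from 11.1 to 42.3 FPKM. None of these 5 genes belongs to the lists of interferon-stimulated genes used here. With groups that differ so widely, this measure mostly picks genes with a similar size of change. That size depends on the scale. The 5 log2 changes were 1.77 to 1.84 here, but 1.82 (*Mxi1*) to 4.30 (*Gipr*) with a pseudocount of 0.1 FPKM. *Gipr* passed the filter through the DADA libraries alone.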

How the data were processed

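Bulk RNA-seq of 8 libraries of mouse splenic CD8+ T cells (4 DMSO, 4 DADA, by title) was analysed. The authors deposited FPKM values for 22520 features, 404 of them assembled transcripts. The submitters' processing notes name HISAT2 2.0.5, StringTie 1.3.3, SAMtools 0.1.18, Picard 1.41, FastQC 0.11.9 and CASAVA 1.8.2 and the builds GRCh38 and GRCm39, with no roles, and the counting of multiply mapped fragments and of strand is not given in the sources used here. Coordinates are those of the GRCm38.p6 promoter table.

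The FPKM table holds no counts. The steps between low values of 4431 genes with a single transcript gave an estimate of 13700000 to 16400000 fragments with DMSO and 15100000 to 18700000 with DADA. Only 41.7% to 47.2% of these values lay within 0.1 of a whole fragment, where chance gives 20%, so no count test was run. The steps fix a depth only up to a whole multiple: on simulated data, the lowest depth tried was returned at nearly double its size, so these estimates are uncertain by such a factor.

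Features that reached 1 FPKM in at least 4 libraries (10666) were tested as log2(FPKM + 1) with limma 3.58.1 in R 4.3.3 (1 term for DADA, eBayes with trend, Benjamini-Hochberg). On simulated data over 10666 features, it called 24 of 50 changes of 0.25, 40 of 50 of 0.5 and 49 of 50 of 1, with 8 false calls. The simulation held only 50 changed features of each size, whereas 66.2% of features were called in the real data. Its rates and its number of false calls therefore do not carry over to the real data. Single genes were tested by exact permutation over 70 assignments (scipy 1.17.1). The genes and lists were chosen with earlier results of these data known. Named were the 9 genes, other PYHIN genes, from each list the 3 strongest rises and 3 strongest falls among its called genes, interferon genes above 0, markers that reached 1 FPKM, the 5 nearest profiles and the genes bordering the cluster. Genes outside this rule are marked, except cell type markers at 0, which are named to check the label. A bordering gene is not reported here. Alternatives were another pseudocount, filter, scaling or moderation, a replicate block and each library left out.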

Additional observations from a re-analysis of the deposited data

Results flagged for a closer look

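Of 96 sets of 4 libraries of a gene and group, 10 held a library apart from its 3 partners by Dixon's test at the 95% level. In this test the distance to the nearest partner is divided by the spread of all 4, and chance gives about 1 in 20. Where 3 libraries are at 0 and 1 is above 0, the ratio is 1.000 by construction. That rate does not apply to such sets, so the count of 10 cannot be set against it. Among the 9 genes, *Aim2* was at 14.7 FPKM in DADA 3 against 12.8 to 13.1 FPKM in the other DADA libraries (ratio 0.842), and its call was lost without this library. *Ifi203* reached 3.02 FPKM in DMSO 3, the others 2.42 to 2.51 FPKM (ratio 0.851), below all DADA libraries, and *Ifi204* was at 0.0150 FPKM in DMSO 1 and listed at 0 in the other 3 (ratio 1.000).

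Of the other named genes, *Zbp1* was low in DMSO 2, at 13.6 FPKM against 16.3 to 16.9 FPKM (ratio 0.830), and *Usp18* high in DADA 2, at 31.8 FPKM against 29.9 to 30.2 FPKM (ratio 0.861). The remaining flags were values near 0: *Ifna1* at 0.0665 FPKM in DMSO 1, *Ifna16* at 0.0274 FPKM in DADA 4, *Ifnab* at 0.0538 FPKM in DADA 3 and *Il1b* at 0.0193 FPKM in DADA 2, each with the other 3 libraries at 0 (ratio 1.000), and *Ifnz* at 0 in DMSO 1 against 0.0136 to 0.0159 FPKM (ratio 0.856).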

How the results depend on the processing

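Over 16 alternatives, the changes of the 9 genes kept their direction, and all calls but that of *Aim2* held wherever the gene was tested. For *Aim2*, the replicate block gave a log2 change of 0.14 (adjusted p = 0.0545), and leaving out 1 library at a time gave 0.10 to 0.17, with the call lost without DMSO 1, DMSO 3 or DADA 3. With a mean of at least 5 FPKM only *Aim2*, *Ifi206*, *Ifi209* and *Mndal* were tested, and 4 of the 9 genes were called, since fewer genes were tested. Without the filter, 10 of 21 interferon genes were tested and 6 called higher in place of 1, since more were tested. In that fit 24.8% of all features were called higher. A pseudocount of 0.1 FPKM moved the changes of *Ifi204*, *Ifi205*, *Ifi208* and *Ifi213* by over 1.5 times, to the values given with each gene. The replicate numbers did not pair the libraries, with correlations of -0.12 to 0.10 between the deviations of equal numbers, and no library of the DMSO group was nearest to its own number. The block changed no other call among the 9 genes. Depth limits values near 0, as for *Ifi204* and *Ifi207* with DMSO and the type I interferon genes.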
